A study of Mus musculus with 6 samples.

Results

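Annexins are calcium-dependent proteins that bind negatively charged membrane phospholipids, and the family was followed here in RNA of small intestinal crypts of the mouse. Crypts are the invaginations of the epithelium where stem cells and Paneth cells reside. The members were taken by gene symbol from a list of 10 annexin genes, and no measured value entered that rule. The list itself was drawn up with earlier results of these data known. Of these 10 genes, 9 had a row among the 17526 genes of the table and 8 passed the filter on low counts. The exceptions were Anxa1, which was below the filter, and Anxa10, which was not analysed here.

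The knockouts were 3 libraries from mice labelled VKO, whose genotype label is an Fpr2 knockout in the intestinal epithelium. They were set against 3 libraries from Fpr2f/f mice, which carry the floxed allele and whose genotype label reads WT. The floxed allele is named for the controls, while the labels name no Cre driver, strain, sex or age. Whether each library is a mouse of its own is not given, so p-values here refer to spread among libraries that could be technical. Fpr2 encodes formyl peptide receptor 2, and the question behind the comparison is how its loss bears on the crypt. The receptor's own transcript was not analysed here, which leaves the genotype labels unchecked.

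An annexin has a conserved core of repeated calcium and lipid binding folds and a variable N-terminal tail. The tail sets the partners of each protein, among them the small S100 proteins. Annexins act in membrane repair, vesicle traffic and the linking of membrane to the actin cortex. Annexin A1 is in addition a glucocorticoid-induced protein that is released from cells and is a ligand of formyl peptide receptor 2, so the deleted receptor and this family share a pathway. In the gut, annexin A2 and annexin A13 are known from the apical trafficking of polarised epithelial cells.

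Total estimated counts were between 16542933 and 16859902 in the knockouts and between 11108511 and 16695304 in the floxed controls. The tissue label could be set against crypt markers: the summed level of the 9 Paneth markers was between 20710 and 32637 CPM (estimated counts scaled to library size with edgeR TMM factors) in the knockouts and between 62507 and 123827 CPM in the floxed controls. Markers of fibroblasts and smooth muscle summed to between 17.8 and 25.6 CPM in the knockouts and between 21.8 and 29.95 CPM in the floxed controls. Floxed controls 1 and 3 stood apart from the other 4 libraries on lymphocyte transcripts. The T cell and intraepithelial lymphocyte markers summed to 65.3, 77.7 and 86.1 CPM in knockouts 1, 2 and 3, and to 275.8, 74.5 and 233.6 CPM in floxed controls 1, 2 and 3. In bulk RNA, fewer cells of a type and less RNA per cell cannot be told apart.

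The promoters of the scarcest and the most abundant members are shown first, because the levels described below run over a wide range between these genes. Each is the stretch of 250 bases before the annotated start in RefSeq (GRCm38.p6, the assembly that mm10 carries), written 5′ to 3′ on the gene's strand. Of the 9 members with a row, RefSeq promoters were found for Anxa1, Anxa2, Anxa4, Anxa5, Anxa7 and Anxa11. Capitals mark matches to TATAAA (a core promoter element), GGGCGG (GC box), TTTATG (a CDX core) or AGAACA (a steroid receptor half-site), searched on both strands. The stretch for Anxa1 lies at chr19:20390672-20390921 (minus strand), that for Anxa2 at chr9:69453433-69453682 (plus strand) and that for Anxa4 at chr6:86793585-86793834 (minus strand). In the GENCODE M21 annotation, Anxa1 starts at 20390944 and Anxa2 at 69453620. By those starts the whole Anxa1 stretch and the last part of the Anxa2 stretch lie inside the genes. RefSeq gives Anxa4 a second promoter, at chr6:86775115-86775364 inside the gene, and the one shown is that at the gene's outer start.
Anxa1: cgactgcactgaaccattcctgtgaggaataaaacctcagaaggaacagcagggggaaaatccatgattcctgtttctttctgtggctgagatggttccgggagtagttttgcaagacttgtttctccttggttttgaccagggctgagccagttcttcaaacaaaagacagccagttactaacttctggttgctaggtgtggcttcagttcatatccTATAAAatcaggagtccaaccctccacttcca
Anxa2: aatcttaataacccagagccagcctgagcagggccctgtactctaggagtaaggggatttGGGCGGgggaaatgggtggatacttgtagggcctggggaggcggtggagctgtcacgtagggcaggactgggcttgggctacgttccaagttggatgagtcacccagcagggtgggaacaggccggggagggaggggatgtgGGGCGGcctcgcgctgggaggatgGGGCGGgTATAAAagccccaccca
Anxa4: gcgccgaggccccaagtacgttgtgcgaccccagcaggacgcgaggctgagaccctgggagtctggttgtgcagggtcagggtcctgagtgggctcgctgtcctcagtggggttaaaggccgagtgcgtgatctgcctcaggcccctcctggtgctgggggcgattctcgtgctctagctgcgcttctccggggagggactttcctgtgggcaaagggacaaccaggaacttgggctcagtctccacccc
Anxa1 and Anxa2 each held 1 TATAAA, close to the start, and 12.4% of 32851 promoters held that motif. Anxa2 also held 3 GC boxes, a motif found in 32.7% of promoters, and the stretches of Anxa1 and Anxa4 held none. Neither the CDX core, found in 10.8% of promoters, nor the steroid half-site, found in 16.1%, matched in these 3 stretches, while the second Anxa4 promoter held 2 steroid half-sites and none of the other motifs. CpG dinucleotides numbered 2 in Anxa1, 9 in Anxa2, 13 in the Anxa4 stretch shown and 2 in the second Anxa4 promoter, against a median of 6.0 over all promoters. A match or its absence describes these letters only.

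Anxa1 transcript was at the edge of detection in crypts of both genotypes. The gene (16952) lies on chromosome 19 at 20373428-20390944, minus strand, in GENCODE M21 on GRCm38. It had 8, 1 and 3 counts in knockouts 1, 2 and 3, and 6, 3 and 6 counts in floxed controls 1, 2 and 3. The groups overlapped, and no library exceeded 8 counts, in totals of 11108511 or more. Pooled, Anxa1 took 12 counts, or 0.239 CPM without TMM scaling (exact Poisson 95% interval 0.123 to 0.417), in the knockouts and 15 counts, or 0.376 CPM (0.211 to 0.620), in the floxed controls. The ratio of knockout to floxed control was 0.635, with an exact counting interval of 0.271 to 1.45. These intervals cover counting error only. The gene was not tested in the fit across all genes, and at this depth a difference in its level was not detectable. The gene span of the lincRNA 1500015L24Rik overlaps the exons of Anxa1 on the opposite strand. Whether its own exons do so was not checked, here or for the neighbours of other members below. Since use of strand in the counting is not given, reads of any exon stretch shared by the pair cannot be told apart.

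Crypt annexin transcript was almost wholly that of 5 genes. Levels of different genes were compared per length, as estimated counts per base of exon scaled to the same total in each library (length-scaled CPM). Anxa4 had the highest mean level, 880.7 ± 69.4 length-scaled CPM in the knockouts and 554.9 ± 95.4 length-scaled CPM in the floxed controls (SD, n = 3 each). Anxa2 followed with 564.8 ± 33.8 length-scaled CPM in the knockouts and 375.2 ± 37.6 length-scaled CPM in the floxed controls. Anxa13 had 282.7 ± 81.4 length-scaled CPM in the knockouts and 163.3 ± 11.4 length-scaled CPM in the floxed controls. These are shares of all transcripts per length, so they also move with the most abundant genes of the crypt. Anxa11 had 192.9 ± 20.4 length-scaled CPM in the knockouts and 156.1 ± 25.4 length-scaled CPM in the floxed controls. Anxa7 had 83.7 ± 8.52 length-scaled CPM in the knockouts and 58.3 ± 11.7 length-scaled CPM in the floxed controls. Among 16632 genes with a length, Anxa4 ranked 165 and Anxa2 ranked 236 by mean over the 6 libraries.

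The other members were far below these 5. Anxa5 averaged 16.97 ± 4.18 length-scaled CPM in the knockouts and 15.9 ± 0.920 length-scaled CPM in the floxed controls, Anxa6 3.94 ± 0.518 in the knockouts against 5.18 ± 1.93 in the floxed controls, and Anxa3 1.66 ± 0.358 in the knockouts against 1.82 ± 0.433 in the floxed controls. Anxa1 averaged 0.234 ± 0.208 length-scaled CPM in the knockouts and 0.320 ± 0.163 length-scaled CPM in the floxed controls. In every library Anxa4 was above Anxa2, Anxa2 above Anxa13, Anxa11 above Anxa7, and so on down to Anxa1. The exception was the pair Anxa13 and Anxa11, where Anxa13 was the higher one in 5 of 6 libraries. Across libraries, the ranges of Anxa4 and Anxa2 overlapped, as did those of Anxa2 and Anxa13, and of Anxa13 and Anxa11. Every later neighbour in the order, from Anxa11 and Anxa7 on, was separated.

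Within the annexin transcripts the make-up was close in all libraries. Anxa4 made up 43.4% ± 0.748 of annexin transcript per length in the knockouts and 41.5% ± 1.77 in the floxed controls. Anxa2 made up 27.9% ± 0.810 in the knockouts and 28.3% ± 1.70 in the floxed controls. For Anxa13 the shares were 11.8%, 12.5% and 17.1% in knockouts 1, 2 and 3, and 12.01%, 11.5% and 13.5% in floxed controls 1, 2 and 3, so knockout 3 alone stood higher. Anxa11 held 10.8%, 10.2% and 7.75% in knockouts 1, 2 and 3, and 11.9%, 11.9% and 11.3% in floxed controls 1, 2 and 3. Each knockout share of Anxa11 lay below each floxed control share, while its CPM overlapped between the groups. Shares within a library move against each other, and the lowest Anxa11 share was in knockout 3, where that of Anxa13 was highest. Together Anxa1, Anxa3, Anxa5 and Anxa6 took 1.47%, 1.12% and 0.836% in knockouts 1, 2 and 3, and 1.86%, 1.47% and 1.95% in floxed controls 1, 2 and 3.

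**Figure D1:**
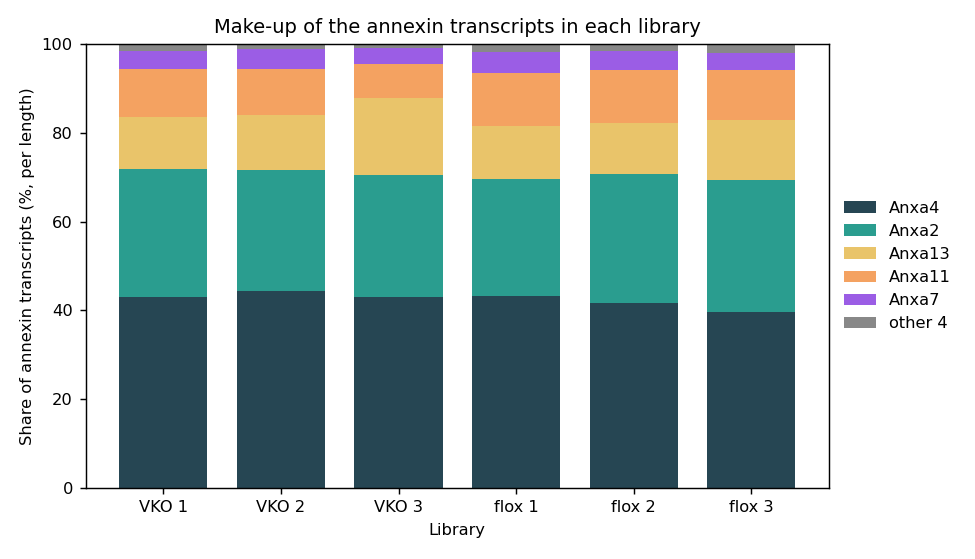
Stacked bars give the share of each annexin in the annexin transcripts of a library (%, counts per exon length), with 3 VKO libraries on the left and 3 flox libraries on the right. Anxa4 takes between 39.7% and 44.3% and Anxa2 between 26.4% and 29.6%, and the 4 scarce members form the thin top band.

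As a share of all counts the 9 members summed to 0.193%, 0.200% and 0.217% in knockouts 1, 2 and 3, and to 0.172%, 0.176% and 0.163% in floxed controls 1, 2 and 3. Every knockout was thus above every floxed control on this scale. The 50 most abundant genes moved the other way: they took between 15.3% and 17.6% of counts in the knockouts and between 22.6% and 33.0% in the floxed controls. Outside those 50 genes, the annexin share was 0.242% ± 0.0122 in the knockouts and 0.233% ± 0.00843 in the floxed controls (SD, n = 3 each), and the groups overlapped. Summed TMM-scaled CPM also overlapped, at 1884 ± 142 in the knockouts and 1844 ± 152 in the floxed controls.

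**Figure D2:**
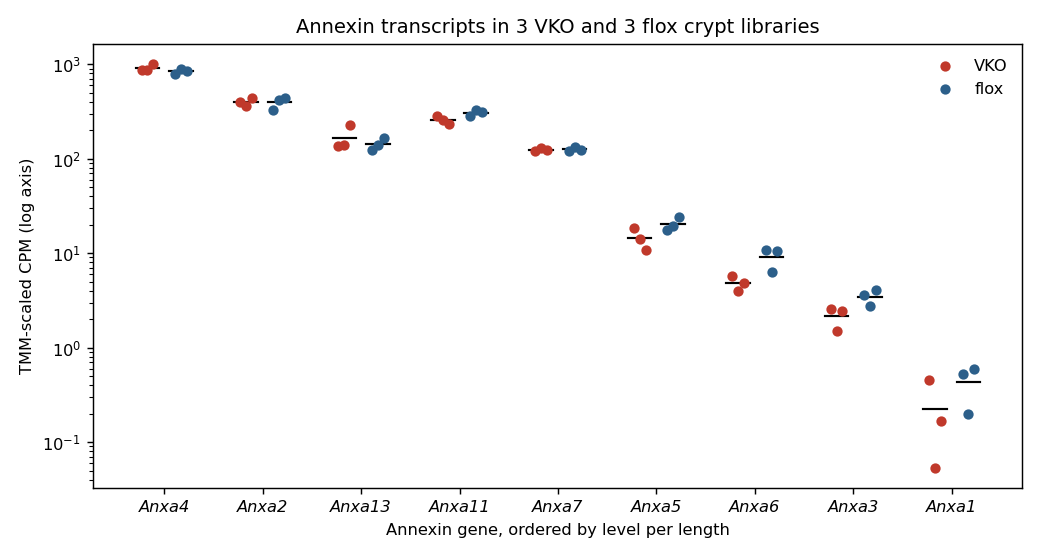
Points are TMM-scaled CPM (log axis) of each annexin gene in each library, VKO left of flox, and the black line is the group mean. Anxa4 lies between 783 and 1001 CPM and Anxa1 between 0.0537 and 0.591 CPM, and the groups separate only for Anxa6 and Anxa3.

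No annexin passed the test between knockout and floxed control crypts in edgeR's quasi-likelihood fit across all genes. Of 8 tested members, 0 passed an adjusted p under 0.05 (Benjamini-Hochberg over 12943 genes), where 0.0155% of all genes passed. One member, Anxa6, was lower at an unadjusted p under 0.05, as were 9.63% of all genes, and DESeq2 called 0 members, against 2.69% of genes with an adjusted p. Of the 8 log2 fold changes, 5 were negative and 3 positive, with a median of -0.14 against -0.013 over all genes. The groups did not overlap for 2 of the 8 members, Anxa6 and Anxa3, both lower in the knockouts, while 10.3% of all genes were lower without overlap.

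Anxa4, which encodes an annexin of epithelial secretory and apical membranes, was the most abundant member. Its gene (11746) spans 86736840-86793584 on chromosome 6, minus strand. It had 869.5, 863.0 and 1001 CPM in knockouts 1, 2 and 3, and 783, 882.2 and 853.5 CPM in floxed controls 1, 2 and 3. The groups overlapped, and knockout 3 was the highest library. The log2 fold change was 0.12 ± 0.19 (SE), with a 95% interval of -0.31 to 0.55 (edgeR adjusted p = 0.848). Its estimated counts were not whole in 5 of 6 libraries, so part of its reads was shared out by the authors' counting. The gene span of the lincRNA Gm44036 overlaps its exons on the opposite strand, and reads of any exon stretch shared by that pair cannot be told apart either.

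Anxa2, the heavy chain of a complex with S100a10, had 400.3, 365.2 and 440.7 CPM in knockouts 1, 2 and 3, and 328.5, 420.1 and 437.4 CPM in floxed controls 1, 2 and 3. The gene (12306) lies on chromosome 9 at 69453620-69491795, plus strand. The highest and lowest floxed controls lay on either side of knockouts 1 and 2, and the log2 fold change was 0.02 ± 0.19 (95% interval -0.39 to 0.44, edgeR adjusted p = 0.972). S100a10, its light chain, had 248.5 ± 45.7 CPM in the knockouts and 228.6 ± 67.0 CPM in the floxed controls (log2 0.12 ± 0.24). In floxed control 1 both partners were at their lowest, Anxa2 at 328.5 CPM and S100a10 at 155.9 CPM. The genes most like Anxa2 in log2 CPM over the 6 libraries, of 5727 genes ranked, were Arl6ip5, Rpl37rt and Usf1, with Pearson r of 0.997, 0.995 and 0.989. All correlations are over the same 6 libraries and the same scaling, and the values are descriptive.

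Anxa13, the founder member of the vertebrate family and a gene of absorptive enterocytes, varied most among the abundant members in the knockouts. Its coefficient of variation was 31.1% there and 14.77% in the floxed controls, where that of Anxa2 was 14.80%. It had 136.2, 138.4 and 227.4 CPM in knockouts 1, 2 and 3, and 124.2, 138.9 and 165.8 CPM in floxed controls 1, 2 and 3. Knockout 3 stood well above the rest, and the other knockouts lay within the range of the floxed controls. The log2 fold change was 0.23 ± 0.22 (95% interval -0.27 to 0.72, edgeR adjusted p = 0.715), and it was -0.05 without knockout 3. Its nearest genes in pattern were Pcyt2, Dstn and Hsd17b11, with Pearson r of 0.973, 0.972 and 0.969 over the 6 libraries. The gene (69787) lies on chromosome 15 at 58341471-58389244, minus strand. GENCODE M21 gives it no coding transcript there and tags a reference genome error, while RefSeq lists it as protein coding.

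The summed level of the 20 villus enterocyte genes was 8471, 11553 and 13073 CPM in knockouts 1, 2 and 3, and 14433, 9023 and 16374 CPM in floxed controls 1, 2 and 3. Of 20 tested genes 0 passed by edgeR, 2 were lower at an unadjusted p under 0.05 and DESeq2 called 1. Among all genes tested, 9.63% were lower at that unadjusted p, and DESeq2 called 2.69% of genes with an adjusted p. In either direction 1776 of 12943 genes were under that unadjusted p. These shares stand beside the counts of each list below as well. In all, 18 had a negative log2 fold change, and the median was -0.19. Slc2a5, the fructose transporter, had 33.8 ± 3.50 CPM in the knockouts and 64.4 ± 19.4 CPM in the floxed controls (log2 -0.93 ± 0.22). Lct, the gene of lactase, had 77.3 ± 34.4 CPM in the knockouts and 144.0 ± 48.5 CPM in the floxed controls. Without floxed controls 1 and 3 the median of this list was 0.35.

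Anxa11 and Anxa7 have long N-terminal tails and bind the calcium sensor encoded by Pdcd6 or, for annexin A7, sorcin (Sri). Anxa11 (11744; chromosome 14, 25842156-25886804, plus strand) had 282.6, 257.7 and 233.1 CPM in knockouts 1, 2 and 3, and 279.5, 325.5 and 313.5 CPM in floxed controls 1, 2 and 3. Knockout 1 lay just above floxed control 1, so the groups overlapped. The log2 fold change was -0.25 ± 0.17 (95% interval -0.62 to 0.13, edgeR adjusted p = 0.567). Its estimated counts were not whole in 4 of 6 libraries. The span of the antisense gene Anxa11os overlaps its exons, so reads of any exon stretch shared by the pair cannot be told apart. Anxa7 (11750; chromosome 14, 20455260-20480133, minus strand) was the steadiest member, with 124.2 ± 4.83 CPM in the knockouts and 126.5 ± 6.90 CPM in the floxed controls. Its coefficient of variation was 3.89% in the knockouts and 5.45% in the floxed controls, and its log2 fold change was -0.03 ± 0.15, with a 95% interval of -0.35 to 0.30 (edgeR adjusted p = 0.963).

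Anxa6, the large annexin with a doubled core, was the member with the smallest p. It lies on chromosome 11 at 54979108-55033445, minus strand (gene 11749). It had 102, 74 and 86 counts in knockouts 1, 2 and 3, and 123, 96 and 107 counts in floxed controls 1, 2 and 3. In scaled units these were 5.76, 3.97 and 4.81 CPM in the knockouts, and 10.7, 6.29 and 10.5 CPM in the floxed controls. Each knockout lay below each floxed control, with knockout 1 and floxed control 2 close to each other. The log2 fold change was -0.92 ± 0.27 (95% interval -1.51 to -0.32, edgeR adjusted p = 0.190). DESeq2 gave an adjusted p of 0.0841.

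The size of the Anxa6 difference turned on floxed controls 1 and 3 together, the libraries with high lymphocyte transcripts. These libraries also had the lowest totals, 11108511 and 12075398 estimated counts, and the lowest summed proliferation markers, 1146 and 976 CPM. Summed markers of tuft cells, an epithelial type, were highest in them as well, at 259.8 and 224.3 CPM. The tuft sum was 118.5 CPM in floxed control 2 and between 85.5 and 124.6 CPM in the knockouts. Without both of them the Anxa6 difference was -0.32, against 1 floxed library. Without floxed control 1 alone it was -0.76, and without floxed control 3 alone -0.78. Without floxed control 2 it was -1.13 and passed edgeR (adjusted p = 0.0243), in a fit in which 7.21% of genes passed. Without floxed control 2 and knockout 1 it was -1.27 (adjusted p = 0.0231), where 7.06% of genes passed. Of the T cell list, 11 of 13 genes were tested, all 11 had a negative log2 fold change with a median of -1.36, edgeR called 0 and DESeq2 5, and no gene with a row was at 0 in all libraries. Gzma, a granzyme of cytotoxic lymphocytes, had 18.6, 22.7 and 26.4 CPM in knockouts 1, 2 and 3, and 85.4, 25.2 and 68.5 CPM in floxed controls 1, 2 and 3. Without floxed controls 1 and 3 the median of the T cell list was 0.18. The 6 B and plasma cell genes tested were all negative, with a median of -1.85, which was -0.061 without those libraries. That list summed to between 565 and 1123 CPM in the knockouts and between 848 and 1322 CPM in the floxed controls. Nearly all of it was Cd74, which epithelium also expresses. Without Cd74, a choice made after its values were seen, it summed to between 7.05 and 12.9 CPM in the knockouts and between 10.6 and 45.5 CPM in the floxed controls. The part of lymphocyte or tuft transcripts in the Anxa6 difference was not tested.

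Markers of other non-epithelial cells were low in all libraries. Vim, the intermediate filament gene of mesenchymal cells and leukocytes, had 10.4, 7.03 and 9.85 CPM in knockouts 1, 2 and 3, and 20.7, 9.97 and 20.1 CPM in floxed controls 1, 2 and 3, the same high libraries as for Anxa6. Myh11 and Des, of the same fibroblast and smooth muscle list, were instead lowest in floxed controls 1 and 3. Myh11 had 0.524, 1.38 and 0.394 CPM and Des 0.349, 1.44 and 0.689 CPM in floxed controls 1, 2 and 3. Of the 5 genes of that list tested, 3 had a positive log2 fold change and 2 a negative one. Endothelial markers summed to between 10.02 and 14.05 CPM in the knockouts and between 14.03 and 14.4 CPM in the floxed controls. Myeloid markers summed to between 26.9 and 49.7 CPM in the knockouts and between 35.9 and 46.7 CPM in the floxed controls. The globin and Alas2 transcripts of red cells summed to between 1.502 and 3.89 CPM in the knockouts and between 5.11 and 17.2 CPM in the floxed controls. Median log2 fold changes were -0.30 over 6 endothelial, -0.79 over 8 myeloid, -1.94 over 3 erythroid and 0.13 over 5 fibroblast and smooth muscle genes tested, and 0 passed by edgeR. DESeq2 called 0 endothelial, 1 myeloid, 2 erythroid and 0 fibroblast and smooth muscle genes. Without floxed controls 1 and 3 the medians were -0.33 for endothelial, 0.34 for myeloid, -0.28 for erythroid and -0.073 for fibroblast and smooth muscle genes.

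**Figure D3:**
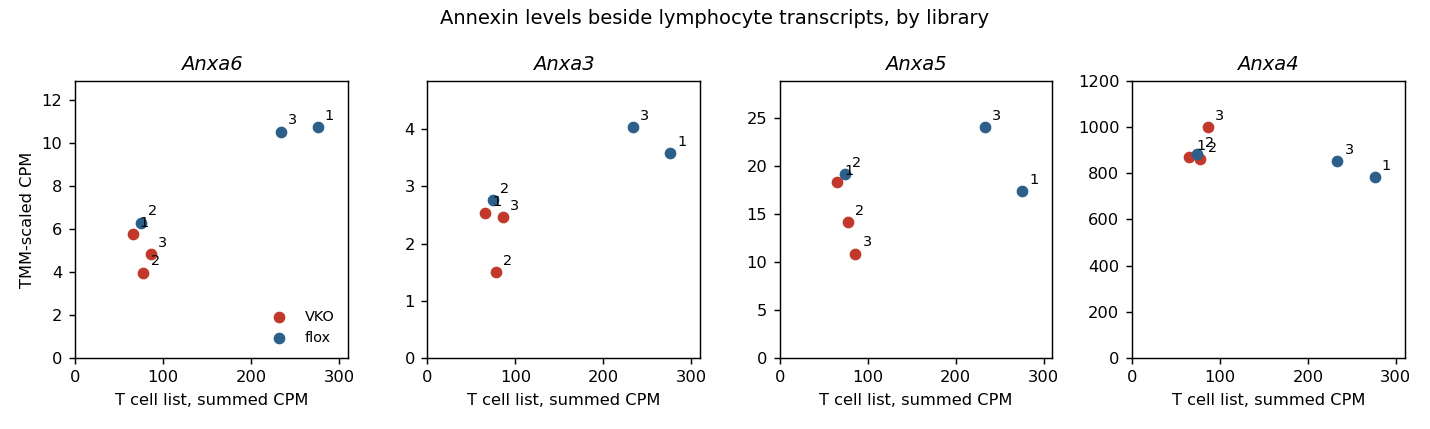
Each panel sets the TMM-scaled CPM of one annexin (vertical axis) against the summed CPM of 11 T cell and intraepithelial lymphocyte genes (horizontal axis) in the 6 libraries, numbered by replicate, VKO in red and flox in blue. Floxed controls 1 and 3 lie far to the right and are the highest libraries for Anxa6 and Anxa3, while Anxa4 is not higher in them. For Anxa5, floxed control 3 is highest, but floxed control 1 (17.4 CPM) lies below floxed control 2 (19.1 CPM) and knockout 1 (18.3 CPM).

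Anxa3 and Anxa5, members of low level here, also stood lower in most knockouts without passing the test. Anxa3 (11745; chromosome 5, 96793339-96845966, plus strand) had 2.54, 1.502 and 2.46 CPM in knockouts 1, 2 and 3, and 3.58, 2.75 and 4.04 CPM in floxed controls 1, 2 and 3. The groups did not overlap, although knockout 1 and floxed control 2 rest on 45 and 42 counts. The log2 fold change was -0.66 ± 0.33 (95% interval -1.39 to 0.06, edgeR adjusted p = 0.401). It was -0.29 without floxed controls 1 and 3.

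Anxa5, known as the probe for phosphatidylserine exposed on dying cells, had 18.3, 14.1 and 10.9 CPM in knockouts 1, 2 and 3, and 17.4, 19.1 and 24.0 CPM in floxed controls 1, 2 and 3. The gene (11747) lies on chromosome 3 at 36448923-36475894, minus strand. Knockout 1 lay above floxed control 1, so the groups overlapped. The log2 fold change was -0.48 ± 0.22 (95% interval -0.98 to 0.01, edgeR adjusted p = 0.373). It was -0.35 without floxed controls 1 and 3, against 1 floxed library.

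**Figure D4:**
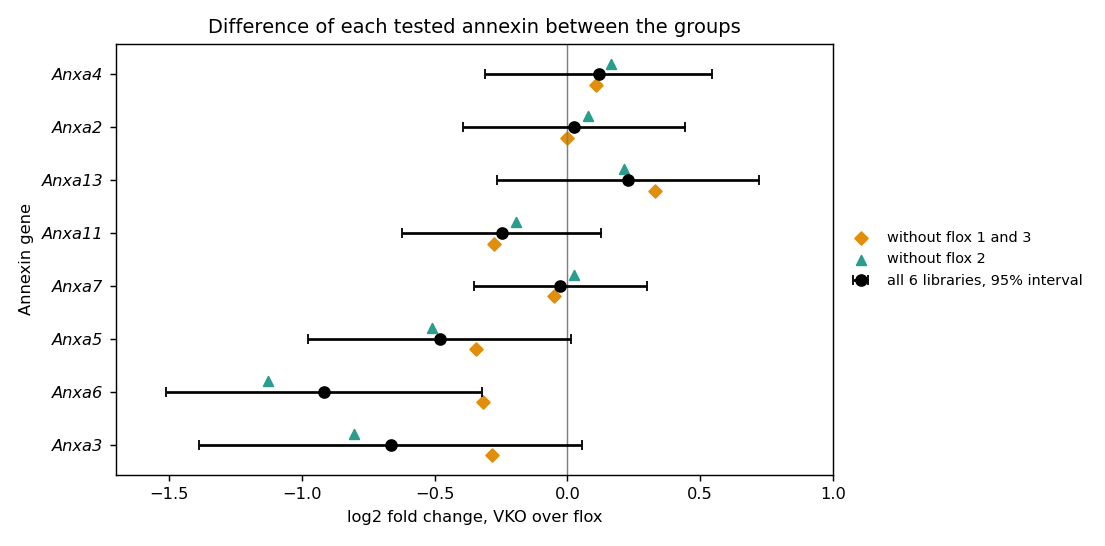
Black points are log2 fold changes (VKO over flox) with 95% intervals for the 8 tested annexins, orange diamonds the values without flox 1 and 3 and green triangles those without flox 2. Anxa6 at -0.92 is the only interval that lies wholly below 0, and its diamond is at -0.32.

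Of the proteins that bind annexins, 7 of 9 genes were tested, 0 passed in either direction by edgeR, at an unadjusted p under 0.05 or by DESeq2, and the median log2 fold change was -0.024, against -0.15 without floxed controls 1 and 3. S100a11, a partner of annexin A1, had 88.4 ± 3.995 CPM in the knockouts and 103.1 ± 25.3 CPM in the floxed controls. S100a6 had 18.6 ± 1.53 CPM in the knockouts and 21.3 ± 6.55 CPM in the floxed controls. Ahnak, the scaffold of the Anxa2 complex, had 61.5 ± 11.2 CPM in the knockouts and 60.2 ± 18.7 CPM in the floxed controls, and Pdcd6 had 76.7 ± 7.88 CPM in the knockouts against 66.8 ± 3.22 CPM in the floxed controls.

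Glucocorticoid response genes were listed because Anxa1 is induced by the glucocorticoid receptor. Of 14 tested, 0 passed by edgeR, 2 were higher and 1 lower at an unadjusted p under 0.05. At that threshold stood 1776 of all 12943 genes, 1247 of them lower. The median of the list was 0.088, against 0.25 without floxed controls 1 and 3. Nr3c1, the receptor, had 105.5 ± 9.05 CPM in the knockouts and 96.8 ± 15.6 CPM in the floxed controls. Tsc22d3, its target GILZ, had 44.8 ± 8.92 CPM in the knockouts and 39.9 ± 7.62 CPM in the floxed controls. Fkbp5, a co-chaperone that the receptor induces, had 131.4, 158.7 and 212.6 CPM in knockouts 1, 2 and 3, and 108.8, 82.7 and 81.8 CPM in floxed controls 1, 2 and 3. Each knockout was above each floxed control. Of all 12943 genes tested, 2244 did not overlap between the groups, 1339 of them lower in the knockouts. The log2 fold change of Fkbp5 was 0.88 ± 0.21, with an edgeR adjusted p of 0.130 and a DESeq2 adjusted p of 0.00562. It was the only gene of the list that DESeq2 called. Zbtb16 had 9.76 ± 3.11 CPM in the knockouts and 5.57 ± 1.86 CPM in the floxed controls. Dusp1 had 2.01 ± 0.0323 CPM in the knockouts and 3.50 ± 0.731 CPM in the floxed controls.

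Phospholipase A2 genes encode the enzymes whose inhibition gave annexins the older name lipocortins. Of 9 tested, 0 passed by edgeR, while 1 was higher and 3 were lower at an unadjusted p under 0.05, as were 9.63% of all genes. Fold changes of 7 were negative, with a median of -0.30, or -0.34 without floxed controls 1 and 3. Pla2g2f, a secreted enzyme, had 56.3, 29.99 and 27.8 CPM in knockouts 1, 2 and 3, and 119.6, 93.2 and 144.9 CPM in floxed controls 1, 2 and 3. The groups were well apart, at a log2 fold change of -1.65 ± 0.28 (edgeR adjusted p = 0.0680, DESeq2 adjusted p = 1.97e-06), and it was the gene of this list that DESeq2 called. Pla2g4a, the cytosolic enzyme of eicosanoid synthesis, had 13.4 ± 3.32 CPM in the knockouts and 15.9 ± 5.01 CPM in the floxed controls. Pla2g10 had 4.28 ± 1.57 CPM in the knockouts against 8.04 ± 2.34 CPM in the floxed controls, and Pla2g12a 19.4 ± 3.54 CPM in the knockouts against 28.8 ± 5.44 CPM in the floxed controls.

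Of 16 membrane repair genes tested, 0 passed by edgeR, 6 were lower at an unadjusted p under 0.05 and DESeq2 called 2. Fold changes of 11 were negative, and the median was -0.20, or -0.18 without floxed controls 1 and 3. Syt7, a calcium sensor of lysosome exocytosis, had 25.7 ± 7.53 CPM in the knockouts and 50.2 ± 10.5 CPM in the floxed controls (log2 -0.96 ± 0.24, edgeR adjusted p = 0.140). Its log2 fold change was -0.53 without floxed controls 1 and 3. Myof, the gene of myoferlin, had 18.5, 14.4 and 11.7 CPM in knockouts 1, 2 and 3, and 35.7, 17.5 and 33.8 CPM in floxed controls 1, 2 and 3. Floxed control 2 lay below knockout 1, and the high libraries were again floxed controls 1 and 3. Myof had a log2 fold change of -0.96 ± 0.28, which was -0.18 without those 2 libraries. Cavin1 stood at 1.204 ± 0.521 CPM in the knockouts and 2.70 ± 1.03 CPM in the floxed controls.

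The remaining 4 pathway lists, which are not cell markers, gave 0 genes that passed by edgeR and 0 by DESeq2. Of 12 genes of phosphatidylserine exposure and engulfment, the process read with annexin A5, 10 were negative, 2 at an unadjusted p under 0.05, and the median was -0.15, or -0.084 without floxed controls 1 and 3. The scramblase-family gene Plscr3 had 20.9 ± 0.613 CPM in the knockouts and 27.1 ± 2.27 CPM in the floxed controls, and Plscr1 had 63.6 ± 7.86 CPM in the knockouts against 79.8 ± 0.657 CPM in the floxed controls. Plasminogen activation had 3 tested genes and a median of -0.62, or -0.16 without those libraries, with Serpinf2, the plasmin inhibitor, at 4.64 ± 1.62 CPM in the knockouts and 9.16 ± 1.12 CPM in the floxed controls. Of 9 genes of the fetal-like and regenerative epithelium, 6 were negative, 3 were lower and 1 higher at an unadjusted p under 0.05. The median of that list was -0.34, or -0.23 without floxed controls 1 and 3. Krt23 had 5.42 ± 0.880 CPM in the knockouts and 9.41 ± 3.01 CPM in the floxed controls, and Il33 had 2.22 ± 0.248 CPM in the knockouts against 3.79 ± 1.11 CPM in the floxed controls. Ly6a, the gene of the list that was higher, had 9.93, 7.51 and 3.86 CPM in knockouts 1, 2 and 3, and 4.02, 4.196 and 4.23 CPM in floxed controls 1, 2 and 3, with knockout 3 below all floxed controls. Of the gastric and Brunner gland list only Gkn3 and Muc6 were tested, with log2 fold changes of -1.04 ± 0.41 and 1.09 ± 0.49, and all of its genes together summed to no more than 4.43 CPM in any library.

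**Figure D5:**
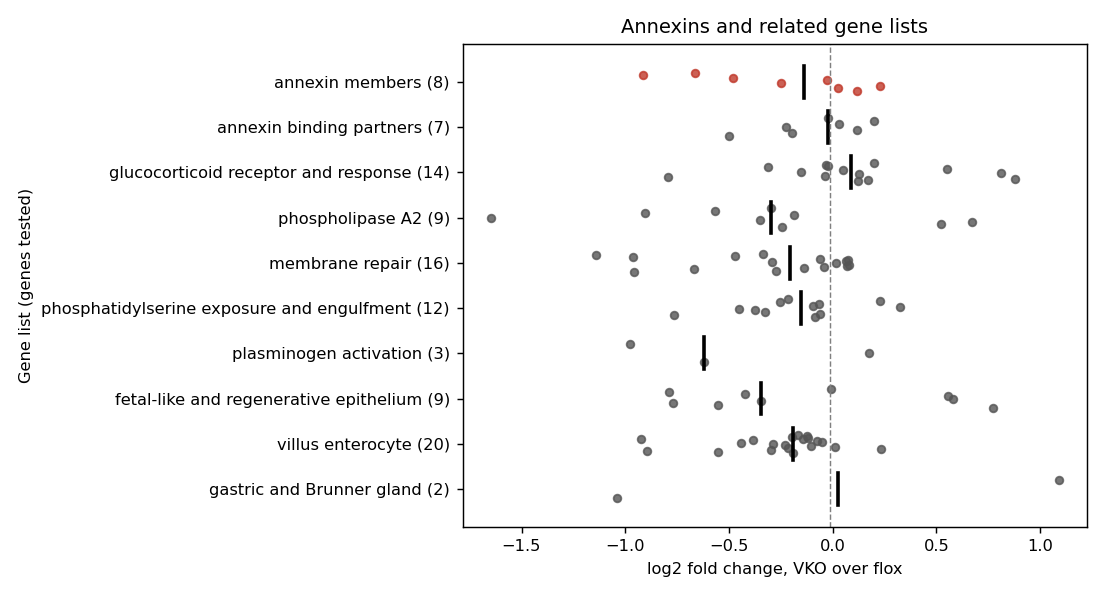
Points are log2 fold changes (VKO over flox) of the tested genes of the annexins and the 9 pathway lists, without the cell marker lists, black bars the list medians and the dashed line the median of all genes. The annexins, in red, run from -0.92 to 0.23 around a median of -0.14, and the widest values among the genes plotted belong to Pla2g2f at -1.65 and Muc6 at 1.09.

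Epithelial markers also stood lower or higher in the knockouts. Medians of the log2 fold changes were -1.73 over 9 Paneth, -0.77 over 10 goblet, -0.79 over 12 enteroendocrine, -1.03 over 10 tuft, -0.34 over 11 stem cell and 0.38 over 12 proliferation genes tested. Without floxed controls 1 and 3 they were -1.20 for Paneth, -0.54 for goblet, -0.53 for enteroendocrine, -0.26 for tuft, -0.28 for stem cell and 0.027 for proliferation genes. Of these genes 0 passed by edgeR, while at an unadjusted p under 0.05 all 9 Paneth, 8 goblet, 11 enteroendocrine, 8 tuft and 6 stem cell genes were lower and 5 proliferation genes higher. DESeq2 called 9 Paneth, 4 goblet, 4 enteroendocrine, 5 tuft, 3 stem cell and 2 proliferation genes. Their part in the annexin values was not tested. Mki67, the proliferation marker, had 389.0 ± 71.5 CPM in the knockouts and 256.5 ± 72.7 CPM in the floxed controls.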

How the data were processed

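Crypt RNA of 3 knockout and 3 floxed control libraries was sequenced from one end, at 50 bp, after an mRNA kit, per the labels' protocols. The build, mm10, is from the submitters' processing notes. For the aligner, counter, annotation and strand setting the entry is: not given in the sources used here. Each deposited value is the authors' estimated count for a gene, without scaling, and 31.1% to 35.2% of the values of a library are not whole. They were rounded for the count tests, where the design had allowed for raw counts. Same-numbered libraries did not pair: their deviations from the group means correlated at -0.18, -0.27 and 0.07.

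Groups were compared in R 4.3.3 by edgeR 4.0.16 (filterByExpr, TMM, glmQLFit robust, glmQLFTest, Benjamini-Hochberg over 12943 genes), and DESeq2 1.42.0 and limma 3.58.1 as alternatives. DESeq2 gave no adjusted p for 251 genes. CPM uses TMM-scaled library sizes, and errors are SD over n = 3 libraries or SE of a log2 fold change. Levels per length used the union of exons of basic coding transcripts in GENCODE M21 (for Anxa13 its basic transcript). The summed annexin share is given without a test. In simulated counts for this comparison (12825 genes), the calls recovered 13.4% of genes simulated at 1.5-fold, 76.1% at 2-fold and 95.4% at 4-fold. The simulation drew each gene from the fitted dispersion trend, without the differences seen among the floxed controls, so real recovery can be lower. In the real fit Defa20, a Paneth gene at a log2 fold change of -2.12, did not pass (edgeR adjusted p = 0.0680). Figures used matplotlib 3.10.9.

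The members and the 21 gene and marker lists were chosen with earlier results of these data known. Named genes are all members, up to 3 genes of smallest p among those of each list, preset anchors and, for Anxa2 and Anxa13, the 3 genes of highest correlation with an average log2 CPM of at least 5. Anxa1 was too low to be ranked. Sri and Cd74 were named after their values were seen.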

Additional observations from a re-analysis of the deposited data

How the results depend on the processing

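Anxa3, Anxa4, Anxa5, Anxa6 and Anxa11 kept the sign of their fold change in all 16 alternatives, and only Anxa6 ever passed: without floxed control 2, and without floxed control 2 and knockout 1 (-1.27, adjusted p = 0.0231), where 1 member was called. In the other alternatives 0 members were called. Members called ranged from 0 to 1 with single libraries left out. Genes called over the whole table were 2, against 0 with RLE size factors, 17 with TMM without the 50 most abundant genes, 13 with library totals only, 342 by DESeq2, 1 by limma-voom, 67 with no filter beyond 1 count, 39 with the replicate block, 12 without floxed controls 1 and 3, 920 without floxed control 2 and knockout 1, and between 0 and 955 with single libraries left out. The block, by numbers that did not pair the libraries, called 0 members. Scaling moved all genes: with TMM without the 50 most abundant genes the median of all genes was 0.198 and that of the annexins 0.077, and with library totals only, chosen after the data were seen, 0.205 and 0.085, so the annexins stayed below the median of all genes. Leaving out one library at a time, the family median was between -0.17 and -0.084. Anxa7 turned to 0.19 under both of those scalings and to 0.049 without floxed control 2 and knockout 1, and was between -0.052 and 0.026 with one library left out. Anxa2 was -0.0028 without floxed controls 1 and 3. With one library left out it was between -0.065 and 0.14, and Anxa13 between -0.055 and 0.38. The difference in summed annexin share, 0.0329 percentage points, was 0.00911 outside the 50 most abundant genes and 0.00403 in TMM-scaled CPM, and between 0.0261 and 0.0381 with one library left out. Per coding length, also chosen after the data were seen, the order of the members with a coding length was unchanged. The coding length of RefSeq proteins was not run. With 1 floxed library left, that library is assumed to vary like the knockouts. The causes of these shifts were not tested. Depth limits Anxa1 in particular, with at most 8 counts in a library.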

Other observations

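Anxa9 and Anxa8, annexin genes outside the list of members, were also scarce in crypts. Anxa9 had 14.7, 13.0 and 17.1 estimated counts in knockouts 1, 2 and 3, and 5.02, 13.1 and 8 in floxed controls 1, 2 and 3. Its log2 fold change was 0.25 ± 0.42 (SE, edgeR adjusted p = 0.854). Its exons overlap the gene span of Mindy1 on the opposite strand and that of 6330562C20Rik on the same strand. Reads of any exon stretch shared with those genes cannot be told apart. Anxa8 had 3, 0 and 1 counts in knockouts 1, 2 and 3, and 4, 0 and 0 counts in floxed controls 1, 2 and 3, below the filter.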
